A study of Saccharomyces cerevisiae with 9 samples.

Results

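The transcriptome of budding yeast overexpressing moxGFP was compared with that of yeast overexpressing EGFP, over every gene row of the deposited count table except the spike-in and transgene rows. The comparison used 6 of the 9 libraries of the series, 3 of the moxGFP strain and 3 of the EGFP strain, and the 3 libraries of the empty plasmid, the vector control, are given for the level without a GFP. The deposited counts had 7220 rows, of which 7126 were gene rows, and 6350 of these passed the filter on low counts and were tested. All groups were BY4743, a diploid laboratory strain of Saccharomyces cerevisiae (his3Δ1/his3Δ1 leu2Δ0/leu2Δ0 ura3Δ0/ura3Δ0, LYS2/lys2Δ0 and met15Δ0/MET15), in logarithmic growth in SC–Leu/Ura, a synthetic medium that lacks leucine and uracil. MOXop cells carried the multicopy plasmid pTOW40836 with moxGFP behind the promoter of TDH3, a glycolytic gene. GFPop cells carried it with a yeast codon-optimized EGFP behind the same promoter, and vector cells carried it with no GFP. The plasmid bears URA3 and the weak allele leu2-89, so that in this medium cells with many copies are favoured. Plasmid copy number and GFP protein were not analysed here, and each group is a single construct in a single strain background, with 3 biological replicates. As these are bulk libraries, fewer cells of a kind and less RNA per cell cannot be told apart.

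EGFP is the common laboratory green fluorescent protein and carries cysteine residues, whose thiol groups can form disulfide bonds. moxGFP is a relative without cysteines. Per the paper it differs only in cysteine content from sfGFP, another GFP, so it differs from EGFP in other residues too. The paper also credits moxGFP with higher folding properties. The comparison asks how the transcriptome of cells burdened with moxGFP differs from that of cells burdened with EGFP. In medium without leucine and uracil the paper measured a higher protein level of moxGFP than of EGFP. Cysteine content, folding and protein level thus differ together between these GFPs, and their parts cannot be told apart here. In yeast, misfolded protein in the cytosol activates Hsf1, the heat shock factor that drives genes of chaperones, and many stresses activate Msn2 and Msn4, which drive a general stress programme. Under stress, genes of ribosomal proteins and of ribosome assembly are usually repressed, and in fast growth they take up a large part of transcription.

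The synthetic genes show what the cysteine change looks like in DNA. The study's reagent list gives the first 399 bases of moxGFP and of sfGFP, the superfolder GFP that is its close relative, and over these 133 codons the pair differed at 2 bases, each in a cysteine codon. The windows below hold 27 bases of each gene, 5′ to 3′, with the changed codon in capitals (TGT codes for cysteine and TCT for serine).
moxGFP, codon 48: ttaaaatttattTCTactactggtaaa
sfGFP, codon 48: ttaaaatttattTGTactactggtaaa
moxGFP, codon 70: tatggtgttcaaTCTttttctagatac
sfGFP, codon 70: tatggtgttcaaTGTttttctagatac
Counted from the first base of the start codon, the substitutions were G143C and G209C, with the base of sfGFP first. The EGFP gene itself was not analysed at the sequence level.

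The transgene rows identified the strains as labelled. The moxGFP row took 17.98, 4.11 and 31.1% of gene and transgene counts in MOXop replicates 1 to 3, and the EGFP row took 11.5, 11.2 and 23.8% in GFPop replicates 1 to 3, so the transgene load of the strains overlapped. In the vector control neither row passed 85 counts. The plasmid markers did not separate the GFP strains either. Levels are given as CPM, counts scaled to a common library size and corrected for composition. URA3 was at 7444, 10160 and 6465 CPM in MOXop and at 9788, 6023 and 4087 CPM in GFPop, against 25130, 25010 and 29430 CPM in the vector control. LEU2 was at 1511, 4193 and 1344 CPM in MOXop, 1925, 1745 and 1070 CPM in GFPop, and 10090, 11820 and 8195 CPM in the vector control. Both markers were therefore lower in each GFP strain than in any vector library, and their MOXop and GFPop values overlapped.

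Library MOXop replicate 2 stood apart from the rest. Ribosomal RNA took 63.9% of its gene counts, against 8.37 and 3.99% in MOXop replicates 1 and 3, 12.1 to 16.3% in GFPop and 8.62 to 23.0% in the vector control. Its gene counts outside ribosomal RNA came to 3085913, and those of the other 8 libraries to between 4659769 and 11571635. Its log2 CPM correlated with those of the other MOXop libraries across genes at r = 0.814 and 0.818, where all other replicate pairs had r between 0.953 and 0.980. It also held more of the short genes and less of the long ones. Over 3970 genes with at least 10 CPM in each group, its median log2 difference from replicates 1 and 3 was 0.69 for genes up to 500 bases and −0.44 for genes over 2000 bases. Library GFPop replicate 1 leaned the same way (0.42 and −0.26) and MOXop replicate 1 the other way (−0.53 and 0.41). Results are therefore given with and without MOXop replicate 2.

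**Figure D1:**
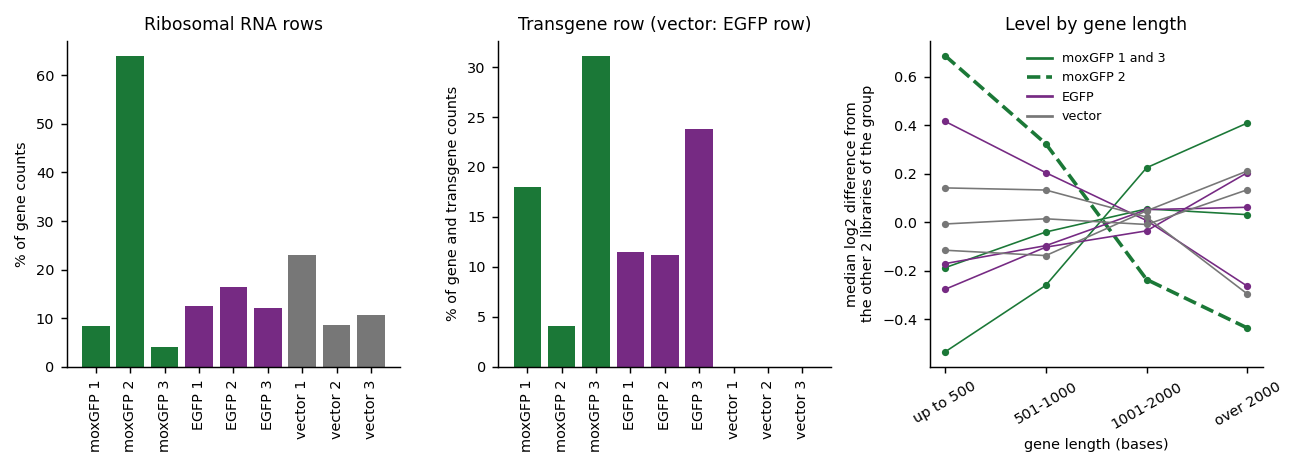
Bars give, for each of the 9 libraries, the percentage of gene counts in ribosomal RNA rows (left) and the percentage of gene and transgene counts in the strain's own transgene row (middle, the EGFP row for the vector control), and lines give each library's median log2 difference from the other 2 libraries of its group in 4 classes of gene length in bases (right). MOXop replicate 2 has 63.9% ribosomal RNA and 4.11% moxGFP, and its line falls from 0.69 in the shortest genes to −0.44 in the longest. The 4.11% is of counts that include ribosomal RNA, and outside it the 2 transgene rows together took 11.2% in this library.

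Expression of 474 genes was significantly higher with moxGFP than with EGFP (7.46% of 6350) and that of 448 was lower (7.06%), 14.5% in either direction, at a false discovery rate (FDR) below 0.05. FDR here is the Benjamini-Hochberg adjusted p-value of edgeR's quasi-likelihood test, fitted to all 9 libraries and adjusted over all genes tested. Leaving out MOXop replicate 2 gave counts of 685 higher (10.7% of 6405) and 715 lower (11.2%). Of the 922 calls, 849 stayed called in the same direction, 402 of the higher and 447 of the lower. The number of calls rested on the EGFP libraries as well: without GFPop replicate 1 there were 110 higher and 147 lower, and without GFPop replicate 2 there were 31 and 68. With library sizes alone as the scaling, 3 genes were higher and 27 lower, and the median of all genes moved by −0.35 on the log2 scale. With ERCC spike-ins as the scaling, 1 gene was higher and none lower at FDR below 0.05, and 304 genes had an unadjusted p below 0.05. No call turned to a call of the opposite direction under any alternative run. Refits of the same counts could hardly bring that about, as 901 of the 922 calls had groups that did not overlap.

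Gene length moved with the direction of the difference. Among genes up to 500 bases 108 of 756 were higher with moxGFP and 22 lower, and among genes over 2000 bases 20 of 1330 were higher and 129 lower. The median log2 fold change fell with length, by class 0.49, 0.24, −0.09 and −0.29, and without MOXop replicate 2 the classes had 0.19, 0.15, −0.06 and −0.20. The part of length in the group results that follow was not tested. The median length of each group is given beside them, where the median over all tested genes with a position was 1236 bases.

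The Hsf1 targets are mostly chaperones and cochaperones of the cytosol. Of 18 such genes 15 were lower with moxGFP than with EGFP, against a background of 7.06% of all genes tested, and none was higher. The median log2 fold change was −1.67, where the median of all genes was 0.01. All MOXop libraries lay below all GFPop libraries in 17 of the 18, against 19.0% of all genes tested. Without MOXop replicate 2, 16 were lower (background 11.2%) and the median stayed at −1.67. Leaving out GFPop replicate 2 gave 10 lower. The group's median length was 1231.5 bases, close to that of all genes. Relative to the vector control its median was −0.01 in MOXop and 1.55 in GFPop, so the level with moxGFP was near that of cells with no GFP.

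HSP82 (YPL240C) codes for the inducible Hsp90. It was at 87.5, 55.7 and 79.6 CPM in MOXop and at 471, 426 and 514 CPM in GFPop, against 37.2, 71.2 and 85.0 CPM in the vector control. The GFPop libraries stood apart above all others, and the log2 fold change of moxGFP over EGFP was −2.66 ± 0.35 (SE, FDR = 0.00332, n = 3 each, edgeR's quasi-likelihood test as elsewhere). HSP82 has a near-identical copy, HSC82, the constitutive Hsp90, so reads may be split between them. HSC82 was at 338, 542 and 353 CPM in MOXop and 869, 669 and 1011 CPM in GFPop. Its libraries did not overlap either, and its difference of −1.05 missed the threshold (FDR = 0.051).

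BTN2 (YGR142W), which sorts misfolded protein into deposits, had the smallest p of the group. It was at 11.96, 13.3 and 13.5 CPM in MOXop and at 46.7, 47.5 and 63.1 CPM in GFPop, against 4.58, 5.20 and 6.33 CPM in the vector control. Its libraries formed separate steps, with vector lowest, moxGFP next and EGFP highest. The log2 fold change was −2.02 ± 0.26 against EGFP (FDR = 0.00254) and 1.26 against the vector (FDR = 0.0068). SSA1 (YAL005C), an Hsp70, stood on the other side of the vector. It was at 481, 597 and 327 CPM in MOXop and 2985, 2945 and 2554 CPM in GFPop, against 1073, 867 and 1236 CPM in the vector control. Its log2 fold change was −2.60 ± 0.35 against EGFP (FDR = 0.00351) and −1.18 against the vector (FDR = 0.0225), with reads again shared with a near-identical copy, SSA2.

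HSP104 (YLL026W) is the disaggregase that pulls proteins out of aggregates. It was at 67.0, 119 and 70.2 CPM in MOXop and 388, 371 and 388 CPM in GFPop, against 67.9, 84.5 and 106 CPM in the vector control, with log2 fold change −2.17 ± 0.31 (FDR = 0.00426). STI1, the cochaperone that joins Hsp70 to Hsp90, was at 60.6, 58.6 and 81.6 CPM in MOXop and 255, 237 and 226 CPM in GFPop (−1.84 ± 0.27, FDR = 0.00483). For HSP104 the MOXop values spanned those of the vector, and for STI1 (38.6, 61.9 and 50.5 CPM in the vector) they overlapped them. The 3 members not called were HSC82, CUR1 (−0.63) and FES1 (−0.47), and among these only CUR1 and FES1 stayed short of the threshold without MOXop replicate 2.

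The windows below show a heat shock element in the promoters of the 2 called members with the smallest p, read from the RefSeq R64 genome of strain S288C on the coding strand and 30 bases long. Capitals mark a match to TTCNNGAA or GAANNTTC, searched on both strands in the 250 bases before the start codon, where N is any base and the letters of both forms can overlap.
BTN2, chrVII:772364-772393, plus strand: atattttcttcTTCTTGAAagaaatatcag
HSP82, chrXVI:98842-98871, minus strand: ttttcttttttTTCTAGAAcgccgtggaag
The match lay from 79 to 72 bases before the start codon in BTN2 and from 235 to 228 in HSP82. It was found in 14 of the 18 promoters of the group (77.8%), against 1124 of 5843 promoters of all tested genes (19.2%), 21.4% of genes called higher and 23.4% of genes called lower. Over all called genes, the named targets included, the letters alone thus separated the directions little. A match is a string of letters and not a measured binding site.

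Other chaperones split by class. Of 29 genes of other cytosolic and mitochondrial chaperones 8 were lower (background 7.06%) and 3 higher (background 7.46%), with a median of −0.36. The lower count was 11 without MOXop replicate 2, 4 without MOXop replicate 3, 5 without MOXop replicate 1 or vector replicate 1, and 3 without GFPop replicate 1 or 2, where 1 was higher. SSA4, the stress-inducible Hsp70, was at 17.5, 16.2 and 18.5 CPM in MOXop and 105, 106 and 78.0 CPM in GFPop (−2.46 ± 0.28, FDR = 0.00198). SSE2, an Hsp110 nucleotide exchange factor, was at 26.4, 19.9 and 26.4 CPM in MOXop and 123, 155 and 109 CPM in GFPop (−2.41 ± 0.28, FDR = 0.00198). HSP60, the mitochondrial chaperonin, was at 285, 221 and 201 CPM in MOXop and 834, 915 and 683 CPM in GFPop (−1.78 ± 0.30, FDR = 0.0067), and its vector level of 796, 612 and 859 CPM overlapped that of EGFP. The vector level of SSA4 was 7.28, 11.4 and 11.6 CPM, below both GFP strains, so these genes were placed differently against cells with no GFP. The higher ones were JJJ3, a J protein that takes part in diphthamide synthesis (2.88 ± 0.41, FDR = 0.00426), CNS1, an Hsp90 cochaperone that helps elongation factor 2 (1.72 ± 0.37, FDR = 0.0155), and SNL1. None of the 8 subunits of CCT, the chaperonin that folds actin and tubulin, was called, and of 19 ER chaperone and unfolded protein response genes only KAR2, the ER Hsp70, was. KAR2 was at 471, 323 and 306 CPM in MOXop and 828, 1079 and 959 CPM in GFPop (−1.38 ± 0.30, FDR = 0.0162), against 1663, 1653 and 1452 CPM in the vector control, so the vector was the highest of the 3 groups.

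The general stress response, the programme of Msn2 and Msn4, was also lower with moxGFP. Of its 47 tested genes (of 48 listed, RGI2 having too few counts) 26 were lower (background 7.06%) and none higher. The median log2 fold change was −1.61. Groups did not overlap in 29 with MOXop lower (background 19.0%) and in 1 with MOXop higher (background 16.7%). With MOXop replicate 2 left out, 33 were lower (background 11.2%) and the median was −1.79. The count was 16 when GFPop replicate 1 was left out and 12 when GFPop replicate 2 was. The group's median length was 1002 bases. Relative to the vector control its median was 0.05 in MOXop and 1.08 in GFPop.

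GAD1 (YMR250W), the glutamate decarboxylase, was at 32.1, 38.4 and 24.99 CPM in MOXop and 206, 240 and 153 CPM in GFPop, against 116, 91.5 and 89.2 CPM in the vector control. PNC1 (YGL037C), the nicotinamidase of NAD salvage, was at 61.0, 64.9 and 65.9 CPM in MOXop and 442, 382 and 257 CPM in GFPop, against 133, 178 and 159 CPM in the vector control. Both were lowest with moxGFP and highest with EGFP, with log2 fold changes of −2.65 ± 0.29 and −2.50 ± 0.29 (FDR = 0.00198 for each). CTT1, the cytosolic catalase, was at 19.3, 20.2 and 16.8 CPM in MOXop and 66.2, 94.4 and 72.3 CPM in GFPop, against 11.5, 11.4 and 14.0 CPM in the vector control (−2.05 ± 0.25, FDR = 0.00233). DDR2, a small stress-induced protein of unknown role, showed the widest range. It was at 39.4, 57.6 and 29.1 CPM in MOXop and 308, 433 and 197 CPM in GFPop, against 3.78, 4.26 and 2.08 CPM in the vector control. DDR2 was thus above the vector with either GFP (log2 fold change 3.63 with moxGFP, FDR = 0.000744, and 6.54 with EGFP, FDR = 0.000127) and was lower with moxGFP than with EGFP (−2.90 ± 0.40, FDR = 0.00392). SOL4, a 6-phosphogluconolactonase-like protein, and MSC1 completed the members with the smallest p (−2.38 ± 0.29 and −2.26 ± 0.28, FDR = 0.00233 for each).

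The stress response element AGGGG, the core that Msn2 and Msn4 bind, is shown in the promoters of GAD1 and PNC1, with the match in capitals.
GAD1, chrXIII:770626-770655, plus strand: cacaccagaaaaAGGGGatcagtaaagtga
PNC1, chrVII:428164-428193, minus strand: aaaagttcttcaAGGGGcaggggtttccgt
A second match follows closely in PNC1. AGGGG on either strand was in 31 of 47 promoters of the group (66.0%) and in 1106 of 5843 promoters of all tested genes (18.9%). It was in 181 of 435 promoters of genes called lower (41.6%) and in 48 of 407 of genes called higher (11.8%). Read the other way, 16.4% of the genes with the element were lower with moxGFP and 4.34% higher, against 5.36 and 7.58% of the genes without it. The lower shares without MOXop replicate 2 were 24.1 and 8.61%.

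**Figure D2:**
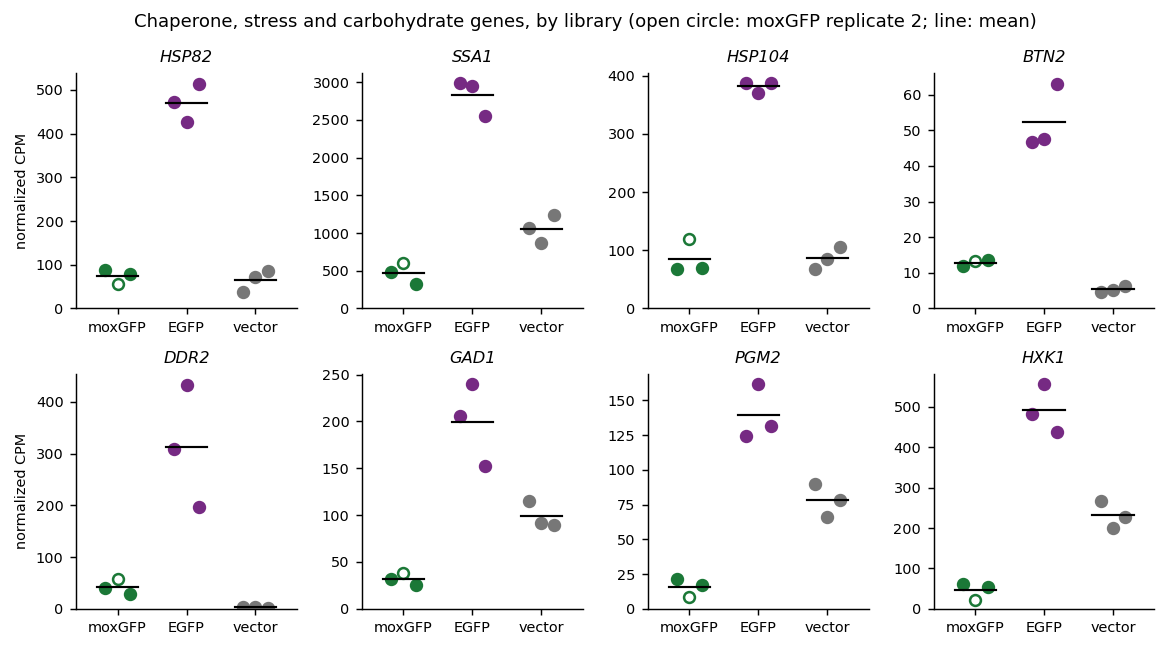
Each panel gives the normalized CPM of a gene in the 3 libraries each of moxGFP, EGFP and the vector control (points), with the group mean (line), and an open circle for MOXop replicate 2. In all 8 genes the 3 moxGFP libraries lie below the 3 EGFP libraries, for HSP82 at 55.7 to 87.5 CPM against 426 to 514 CPM.

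Genes of storage carbohydrate followed. Trehalose is a disaccharide that protects proteins and glycogen a glucose polymer, and both are laid down under stress or slow growth. Of 10 trehalose genes 8 were lower with moxGFP (background 7.06%) and none higher, with a median of −1.85. Without MOXop replicate 2 the median was −1.87 and 8 were again lower (background 11.2%). PGM2, the phosphoglucomutase that feeds both stores, was at 21.7, 8.28 and 17.1 CPM in MOXop and 125, 162 and 132 CPM in GFPop, against 89.7, 65.8 and 78.7 CPM in the vector control (−3.13 ± 0.35, FDR = 0.00198). TSL1, a regulatory subunit of trehalose synthase, was at 119, 61.3 and 68.4 CPM in MOXop and 473, 844 and 539 CPM in GFPop (−2.90 ± 0.40, FDR = 0.00392). TPS1, the synthase itself, was at 122, 148 and 80.6 CPM in MOXop and 599, 619 and 412 CPM in GFPop (−2.22 ± 0.33, FDR = 0.00478). Genes for breakdown were lower along with those for synthesis, ATH1, the acid trehalase, with a log2 fold change of −2.52 (FDR = 0.00373), and NTH1, the neutral trehalase, with −1.72 (FDR = 0.00467). The exceptions were TPS3 (−0.74) and PGM1 (−0.58), neither of which passed the test.

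Of 13 glycogen genes 10 were lower (background 7.06%) and none higher (median −1.38, and −1.67 without MOXop replicate 2), with 5 lower when GFPop replicate 1 was left out and 2 when GFPop replicate 2 was. They included the synthases GSY1 (−2.29 ± 0.32, FDR = 0.00392) and GSY2 (−2.10 ± 0.40, FDR = 0.0109), the debranching enzyme GDB1 (−2.33 ± 0.40, FDR = 0.00756), the phosphorylase GPH1 (−1.94 ± 0.37, FDR = 0.0107) and IGD1, an inhibitor of Gdb1 (−2.40 ± 0.49, FDR = 0.0129). GSY1 was at 7.82, 6.63 and 7.40 CPM in MOXop and 38.3, 34.5 and 34.8 CPM in GFPop, against 47.2, 30.9 and 68.9 CPM in the vector control, so the EGFP and vector values overlapped and the moxGFP values lay below both. Relative to the vector control the group medians were −1.58 in MOXop and 0.78 in GFPop for trehalose and −0.70 and 0.36 for glycogen. Both groups hold long genes, with median lengths of 2299.5 and 1947 bases. The median of all genes in the same length classes was −0.29 (over 2000 bases) and −0.09 (the class below).

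Sugar uptake and central metabolism were lower in part. Of 19 glycolytic genes 2 were lower (background 7.06%), both for glucose phosphorylation. HXK1 (YFR053C), the hexokinase that glucose represses, was at 62.6, 20.5 and 52.7 CPM in MOXop and 482, 556 and 437 CPM in GFPop, against 268, 201 and 228 CPM in the vector control (−3.43 ± 0.40, FDR = 0.00203). GLK1, the glucokinase, was at 432, 40.1 and 198 CPM in MOXop and 1911, 1875 and 1147 CPM in GFPop, against 4842, 5810 and 3898 CPM in the vector control (−2.88 ± 0.68, FDR = 0.0212, and −2.38, FDR = 0.00199, without MOXop replicate 2). The dubious gene YCL042W overlaps GLK1 (YCL040W) and was lower too (−4.17 ± 0.81, FDR = 0.0112). Both lie on the same strand, so the reads of the pair cannot be told apart even by strand. Of 22 hexose transport genes 19 had a negative log2 fold change (median −0.89), 14 had all MOXop libraries below all GFPop libraries (background 19.0%) and 5 were lower by the test (background 7.06%): the high-affinity transporters HXT6 and HXT7, which are near-identical copies, HXT5, the glucose sensor SNF3 and MTH1, a corepressor of HXT genes. HXT7 was at 100, 68.9 and 60.4 CPM in MOXop and 313, 304 and 181 CPM in GFPop (−1.79 ± 0.32, FDR = 0.00798). The count of hexose transport genes was 10 without MOXop replicate 2, 3 without MOXop replicate 3 or GFPop replicate 1, and 1 without GFPop replicate 2, and of the glycolytic genes 4 were lower without MOXop replicate 1 and 1 without MOXop replicate 3 or GFPop replicate 1 or 2.

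Of 17 TCA cycle genes 5 were lower (background 7.06%) and none higher. The 5 were CIT1, IDH1, IDH2, KGD1 and SDH1 (−1.27 to −1.58). Groups did not overlap in 11 of the 17, with MOXop lower (background 19.0%). The count of lower calls was 8 without MOXop replicate 2, 3 without MOXop replicate 3 or GFPop replicate 3, 2 without GFPop replicate 1 and 1 without GFPop replicate 2. Of 9 pentose phosphate genes 4 were lower (background 7.06%) and RKI1, the ribose-5-phosphate isomerase, was higher (1.81 ± 0.28, FDR = 0.00533). RKI1 stayed higher whichever library was left out, while none of the 4 was lower without GFPop replicate 1 or 2 and 2 were without MOXop replicate 3 or GFPop replicate 3. ZWF1, the glucose-6-phosphate dehydrogenase that supplies NADPH, was at 327, 192 and 182 CPM in MOXop and 727, 681 and 451 CPM in GFPop (−1.41 ± 0.34, FDR = 0.0217), with the vector at 1274, 1081 and 1313 CPM. In fermentation PDC5 was lower (−1.56 ± 0.25, FDR = 0.00567) and ADH5 higher (1.36 ± 0.38, FDR = 0.0362). In the redox defence 3 of 40 were lower and none higher, a share near the 7.06% of all genes called lower: SOD2, the mitochondrial superoxide dismutase (−1.44 ± 0.26, FDR = 0.00836), OYE3, an NADPH dehydrogenase (−1.41 ± 0.34, FDR = 0.0217), and PRX1, the mitochondrial peroxiredoxin (−1.16 ± 0.34, FDR = 0.0456). With MOXop replicate 2 left out that group had 10 lower, without GFPop replicate 1 it had 1 and without GFPop replicate 2 none. In autophagy and vacuolar proteolysis 7 of 26 were lower (background 7.06%) and none higher, with the aminopeptidase APE1 (−1.48 ± 0.27, FDR = 0.00948) and the protease ATG4 (−1.13 ± 0.26, FDR = 0.0192) first by p. That count was 3 without MOXop replicate 3, 2 without GFPop replicate 1 and 0 without GFPop replicate 2.

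Genes of ribosome production lay on the other side. Of 59 genes of the SSU processome and 40S assembly, which process the small-subunit rRNA, 24 were higher with moxGFP (background 7.46%) and none lower (median 1.04). Of 76 60S assembly factors 34 were higher (background 7.46%) and none lower (median 1.05). Groups did not overlap in 37 of the 59 and in 51 of the 76, all with MOXop higher, against 16.7% of all genes. The counts without MOXop replicate 2 were 39 and 55 (background 10.7%) and the medians 1.07 and 1.16. They rested on the EGFP libraries too, at 6 and 17 when GFPop replicate 1 was left out and 1 and 6 when GFPop replicate 2 was, and the small-subunit count was 15 without MOXop replicate 3, and 15 again when replicate number was a term. The median lengths were 1659 and 1399.5 bases, in the class whose median over all genes was −0.09. Relative to the vector control the medians were 1.65 and 1.67 in MOXop and 0.46 and 0.58 in GFPop.

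NSR1 (YGR159C), a nucleolin-like protein of pre-rRNA processing, was at 179, 222 and 208 CPM in MOXop and 64.2, 72.5 and 65.5 CPM in GFPop, against 35.5, 42.4 and 32.1 CPM in the vector control. Its libraries fell into separate steps, with moxGFP highest (1.59 ± 0.24, FDR = 0.0051). HAS1 (YMR290C), an RNA helicase of both subunits' assembly, was at 47.6, 46.4 and 57.6 CPM in MOXop and 16.2, 16.2 and 21.5 CPM in GFPop (1.49 ± 0.25, FDR = 0.00719). SNU13, a protein of box C/D snoRNPs, was at 397, 974 and 388 CPM in MOXop and 103, 87.4 and 149 CPM in GFPop, and was far highest in MOXop replicate 2 (2.37 ± 0.40, FDR = 0.00719, and 1.80 without that library). NIP7 (YPL211W), which acts in 60S biogenesis, was at 78.6, 103 and 105 CPM in MOXop and 18.8, 16.6 and 20.7 CPM in GFPop, against 26.8, 29.3 and 20.4 CPM in the vector control. This one was higher with moxGFP by 2.35 ± 0.26 (FDR = 0.00198), and with EGFP it was near the vector (−0.45, FDR = 0.255). BRX1, another 60S factor, was at 89.1, 93.7 and 130 CPM in MOXop and 20.7, 18.8 and 35.2 CPM in GFPop (2.07 ± 0.33, FDR = 0.00567), and MRT4, NOP15 and ALB1 were higher by 1.98, 2.32 and 1.71 (FDR = 0.00426, 0.00567 and 0.00568).

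The PAC element GATGAG is common in promoters of ribosome assembly genes, and is shown here for the 2 called members of the small-subunit group with the smallest p, with the match in capitals (in NSR1 it is on the other strand).
NSR1, chrVII:807826-807855, minus strand: ttgcaagggcagCTCATCgcaagaacgaaa
HAS1, chrXIII:851680-851709, minus strand: attagctttagcGATGAGatgagattttat
It was in 53 of 59 promoters of the small-subunit group (89.8%) and 66 of 76 of the large-subunit group (86.8%), against 998 of 5843 of all tested genes (17.1%). It was in 36.1% of the promoters of genes called higher and in 8.97% of those called lower. Of the genes with the element 14.7% were higher and 3.91% lower, against 5.37 and 8.17% of the genes without it, and without MOXop replicate 2 the higher shares were 22.5 and 8.34%.

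**Figure D3:**
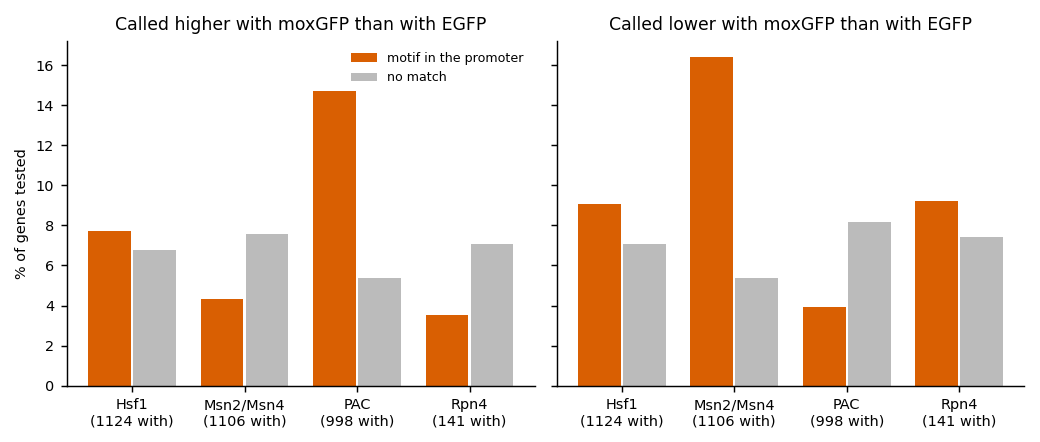
Bars give the percentage of tested genes called higher (left) or lower (right) with moxGFP than with EGFP, for genes with and without each motif in the 250 bases before the start codon. AGGGG (Msn2/Msn4) goes with lower calls, 16.4% against 5.36%, and GATGAG (PAC) with higher calls, 14.7% against 5.37%, while the Hsf1 and Rpn4 letters separate the genes less.

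All 137 ribosomal protein genes had a positive log2 fold change, with a median of 1.22. Of these 49 were higher by the test (background 7.46%) and none lower, and 107 did not overlap between the groups (background 16.7%). When MOXop replicate 2 was left out, 42 were higher (background 10.7%) and the median was 0.79. The count was 88 when MOXop replicate 1 was left out, 5, 0 and 13 for GFPop replicates 1, 2 and 3, and 24, 20 and 29 for vector replicates 1, 2 and 3. The group is short, with a median length of 771 bases, and 86.9% of its genes are at most 1000 bases long. Over all genes in the class above 500 and up to 1000 bases the median was 0.24, and 0.15 without that library. As 94 of the 137 have a near-identical copy, single members are uncertain. RPS26B (YER131W), of the small subunit, was at 334, 503 and 531 CPM in MOXop and 185, 129 and 145 CPM in GFPop, against 90.1, 107 and 131 CPM in the vector control (1.58 ± 0.30, FDR = 0.0106). RPL31B, of the large subunit, was at 303, 386 and 474 CPM in MOXop and 150, 103 and 105 CPM in GFPop (1.70 ± 0.34, FDR = 0.0123). The ribosomal proteins together took 16.3, 29.3 and 21.7% of gene counts outside ribosomal RNA in MOXop and 13.5, 9.38 and 13.2% in GFPop, against 5.07 to 8.80% in the vector control. By the two-sided exact permutation test p was 0.1, the smallest that 3 against 3 libraries allow. The result depended on the denominator: over all gene rows the shares were 14.9, 10.6 and 20.8% in MOXop and 11.8, 7.85 and 11.6% in GFPop, where the groups overlapped (exact permutation p = 0.3), and with the transgene rows added the difference was 3.49 percentage points (exact permutation p = 0.2). Outside ribosomal RNA the Hsf1 targets took 0.364, 0.312 and 0.407% in MOXop and 1.56, 1.496 and 1.58% in GFPop (exact permutation p = 0.1).

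**Figure D4:**
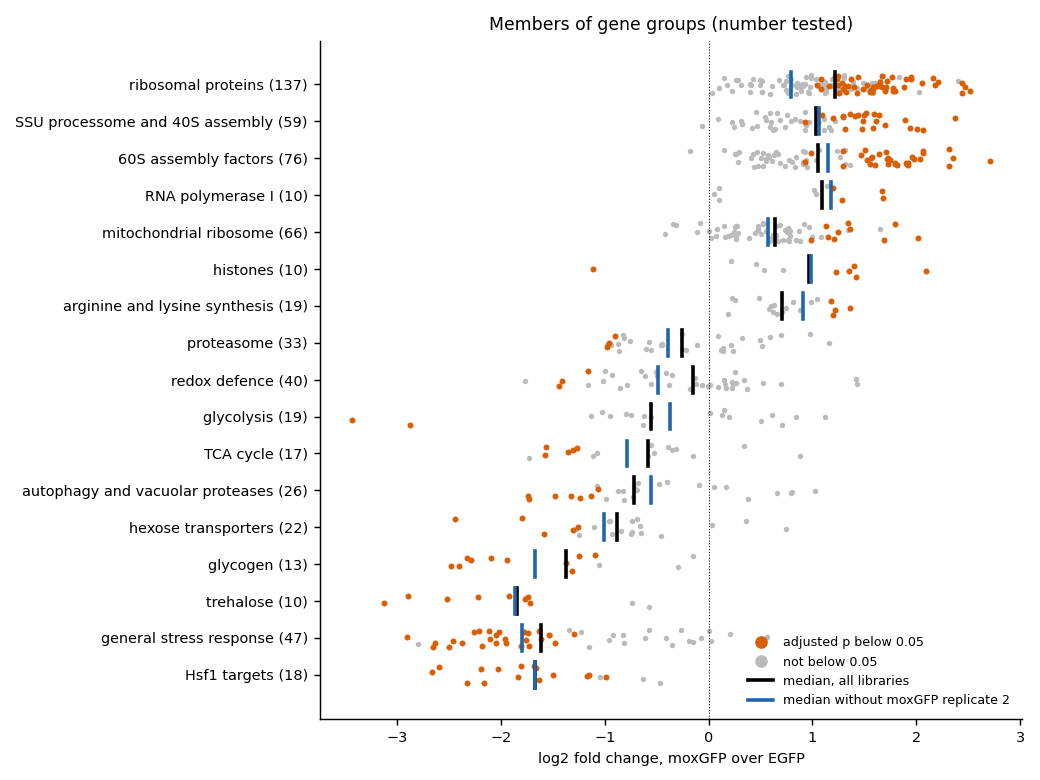
Points give the log2 fold change of moxGFP over EGFP for the tested members of 17 gene groups, in orange where the FDR was below 0.05, with the median of each group over all libraries (black) and without MOXop replicate 2 (blue). Groups of ribosome production sit to the right with medians of 1.04 to 1.22, and Hsf1 targets, the general stress response, trehalose and glycogen to the left with medians of −1.38 to −1.85.

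Other parts of the machinery for growth were higher in part, where 7.46% of all genes tested were called higher and 7.06% lower. Of 10 genes of RNA polymerase I, which transcribes rRNA, 4 were higher (RPC19, RPA12, RPA34 and RPA43, 1.2 to 1.68) with a median of 1.09, and of 10 of RNA polymerase III 2 were (RPC17 and RPC11). Of 66 mitochondrial ribosome genes 10 were higher (background 7.46%) and none lower (median 0.64), with MRP10 first by p (1.21 ± 0.23, FDR = 0.0109). This group is short, with 84.8% of its genes at most 1000 bases long and a median length of 706.5 bases. Its count was 17 without MOXop replicate 1, 6 without MOXop replicate 3 or vector replicate 1 or 3, 2, 0 and 5 without GFPop replicates 1, 2 and 3, and 15 without MOXop replicate 2. Of 38 translation factors 5 were higher (ANB1, SUI2, CDC33, TIF11 and SUI3) and CAM1 lower, and of 20 cytosolic aminoacyl-tRNA synthetases none was called. Of 19 genes of arginine and lysine synthesis 4 were higher (background 7.46%) and none lower, with 2 without MOXop replicate 3 or GFPop replicate 3, 1 without GFPop replicate 1, 0 without GFPop replicate 2 and 6 without MOXop replicate 2. ARG1, the argininosuccinate synthase, was at 710, 472 and 505 CPM in MOXop and 250, 198 and 210 CPM in GFPop (1.36 ± 0.27, FDR = 0.0124), and its vector level of 228, 205 and 239 CPM overlapped that of EGFP. Of 10 histone genes 5 were higher, all of the core, and HHO1, the linker histone, was lower (−1.11 ± 0.32, FDR = 0.0389). HTA2 was at 125, 234 and 133 CPM in MOXop and 39.4, 23.1 and 52.4 CPM in GFPop (2.10 ± 0.37, FDR = 0.0077), and the vector at 104, 131 and 132 CPM overlapped MOXop. Core histone genes are few and paired copies, so their reads may be split. Without GFPop replicate 2 no gene of the polymerases or translation factors and 1 histone gene was called, and without GFPop replicate 1 the higher counts were 1 each for RNA polymerase I, RNA polymerase III and translation factors and 3 for histones.

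**Figure D5:**
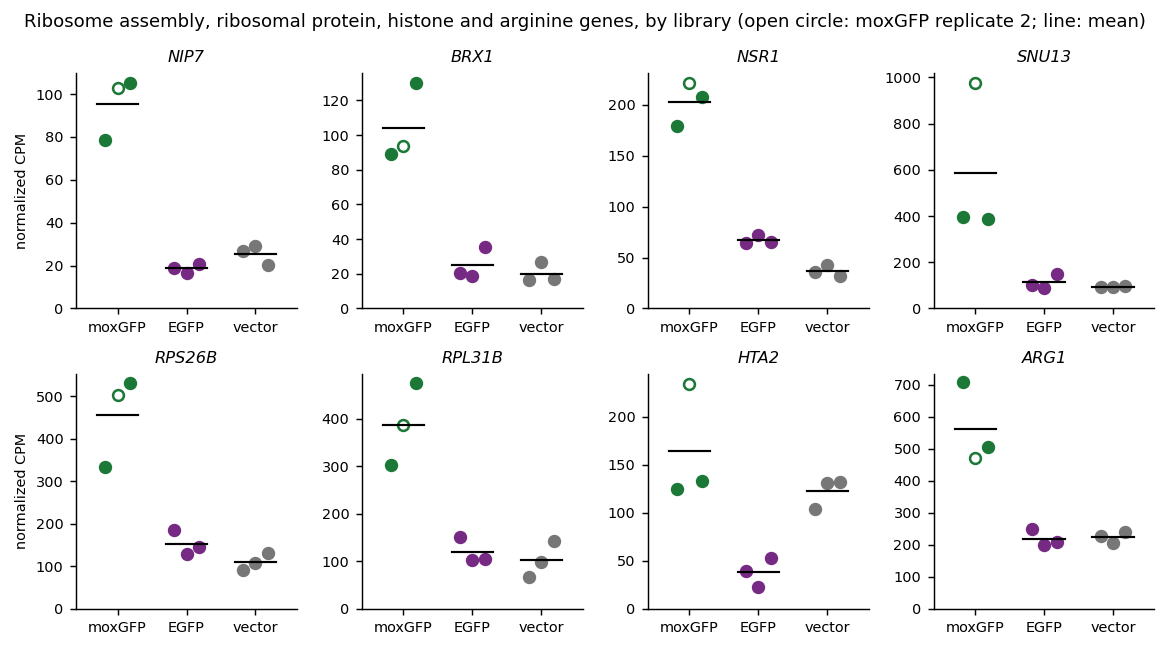
Each panel gives the normalized CPM of a gene in the 3 libraries each of moxGFP, EGFP and the vector control (points), with the group mean (line), and an open circle for MOXop replicate 2. In all 8 genes the 3 moxGFP libraries lie above the 3 EGFP libraries, for NIP7 at 78.6 to 105 CPM against 16.6 to 20.7 CPM.

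Rpn4 is the transcription factor of proteasome genes, and is itself degraded by the proteasome. RPN4 (YDL020C) was at 52.6, 13.3 and 56.2 CPM in MOXop and 104, 124 and 123 CPM in GFPop, against 20.0, 27.02 and 26.1 CPM in the vector control. The MOXop libraries lay below the GFPop libraries, with replicate 2 lowest (−1.51 ± 0.43, FDR = 0.0396, and −1.10, FDR = 0.00714, without replicate 2). Of 33 proteasome genes 3 were lower, a share near the 7.06% of all genes, and none higher: PRE2, RPN10 and RPT4, by 0.90 to 0.98 on the log2 scale (FDR = 0.0187, 0.023 and 0.0456). Groups did not overlap in 15 of the 33 with MOXop lower (background 19.0%) and in 2 with MOXop higher (background 16.7%). Relative to the vector control the group's median was −0.11 in MOXop and 0.05 in GFPop. The median log2 fold change of moxGFP over EGFP was −0.26 (−0.39 without MOXop replicate 2), with none called when GFPop replicate 1 or 2 was left out. With ERCC spike-ins as the scaling and MOXop replicate 2 left out it was 0.10, where the median of all genes was 0.39. Relative to all genes the proteasome median was then −0.29, against −0.27 in the main fit. Of 30 proteasome regulator and ubiquitin genes, groups did not overlap in 14 with MOXop lower (background 19.0%) and in 2 with MOXop higher (background 16.7%). By the test 6 of the 30 were lower (background 7.06%), with 9 without MOXop replicate 2, 3 without vector replicate 1 and 0 without GFPop replicate 1 or 2. Besides RPN4 these were CDC48, the segregase that extracts ubiquitinated proteins (−1.37 ± 0.29, FDR = 0.0146), DDI1 and DSK2, which carry substrates to the proteasome, UBI4, the polyubiquitin gene, and SHP1, a Cdc48 cofactor. CDC48 was at 181, 119 and 135 CPM in MOXop and 362, 418 and 342 CPM in GFPop, with the vector at 432, 317 and 494 CPM. The Rpn4 motif GGTGGCA was in 27 of 33 proteasome promoters (81.8%) against 2.41% of all tested genes, was not matched in that of RPN4, and is shown for CDC48 beside the heat shock letters of RPN4.
RPN4, chrIV:416711-416740, minus strand: tttcaaaagttTTCTAGAAttttcaagcaa
CDC48, chrIV:238787-238816, minus strand: aatgtgaattcGGTGGCAaaaaaggacata

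The messages of the regulators themselves were mostly not called. HSF1 was at 82.7, 337 and 75.5 CPM in MOXop and 95.5, 71.0 and 53.7 CPM in GFPop, with the high value in MOXop replicate 2 (FDR = 0.142). MSN2 was at 31.4, 2.65 and 29.7 CPM in MOXop and 29.8, 39.5 and 46.0 CPM in GFPop, and MSN4 at 41.2, 14.9 and 37.4 CPM in MOXop and 33.5, 47.1 and 39.7 CPM in GFPop, each with its low value in MOXop replicate 2. The messages of YAP1 and SKN7, factors of the oxidative response, had log2 fold changes of −0.13 and −0.65. SFP1, an activator of ribosomal genes, had −0.84 (FDR = 0.188) and GCN4, the activator of amino acid synthesis, 0.58 (FDR = 0.257). FHL1 and GIS1 had −0.15 and −0.93. HAC1 ranged from 56.0 to 405 CPM in MOXop and from 15.2 to 852 CPM in GFPop and IFH1 from 0.70 to 10.6 and from 1.12 to 9.97 CPM, so neither could be read at this spread.

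Cell cycle and surface genes were mixed. Of 34 genes of cyclins and bud morphogenesis 5 were lower (background 7.06%) and none higher. CLN2, a G1 cyclin, was at 24.7, 9.61 and 20.4 CPM in MOXop and 55.9, 74.4 and 62.1 CPM in GFPop, against 43.0, 31.5 and 39.1 CPM in the vector control (−1.79 ± 0.34, FDR = 0.0104). GIC2, an effector of the polarity GTPase Cdc42, was at 29.1, 4.31 and 27.3 CPM in MOXop and 107, 140 and 93.4 CPM in GFPop, against 35.2, 18.8 and 29.6 CPM in the vector control (−2.46 ± 0.54, FDR = 0.0163). GIC1 (−1.25, FDR = 0.0454), BUD8, a landmark of the distal pole (−0.98, FDR = 0.0224), and HSL1, a kinase of the morphogenesis checkpoint (−1.06, FDR = 0.04), were the others. The count was 7 lower and 1 higher without MOXop replicate 2, 3 lower without MOXop replicate 3 or any 1 vector library, and 1, 0 and 2 lower without GFPop replicates 1, 2 and 3.

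Of 53 cell wall genes 5 were higher, a share near the 7.46% of all genes tested, and 11 lower (background 7.06%). SUN4, a glucanase-like protein of septation, was at 825, 342 and 435 CPM in MOXop and 118, 105 and 125 CPM in GFPop (2.21 ± 0.36, FDR = 0.00567), and its vector level of 512, 522 and 410 CPM overlapped MOXop. The daughter-specific DSE2 was at 2344, 321 and 1449 CPM in MOXop and 153, 139 and 417 CPM in GFPop, where MOXop replicate 2 fell below GFPop replicate 3 (2.54 ± 0.66, FDR = 0.0286). TIR3, a mannoprotein, was higher as well (1.63 ± 0.26, FDR = 0.00545). Among the lower ones were PRY2, a sterol-binding secreted protein (−2.58 ± 0.39, FDR = 0.0051), PIR3, a wall protein (−2.90 ± 0.65, FDR = 0.0182), and SLT2, the kinase of the cell wall integrity pathway (−1.28 ± 0.24, FDR = 0.0104). PIR3 was at 246, 39.4 and 153 CPM in MOXop and 978, 1701 and 604 CPM in GFPop, against 127, 99.5 and 45.4 CPM in the vector control. The balance of directions moved with several libraries: 14 higher and 13 lower without MOXop replicate 2, 6 and 4 without MOXop replicate 3, 2 and 2 without GFPop replicate 1, 2 and 1 without GFPop replicate 2, and 6 or 7 lower without any 1 vector library.

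In metal, phosphate and sulfur metabolism 2 of 25 phosphate, 2 of 16 zinc and 2 of 9 copper genes were higher and none lower. Of 28 iron genes 1 was higher and 3 lower, and of 29 sulfate and methionine genes 4 were lower and none higher. Over all genes tested 7.46% were called higher and 7.06% lower, and no difference from these shares was tested. PHO84, the phosphate transporter, was at 227, 66.6 and 205 CPM in MOXop and 47.3, 39.8 and 24.4 CPM in GFPop, against 4426, 5936 and 2811 CPM in the vector control. It was thus far lower with either GFP than with the vector, and higher with moxGFP than with EGFP (2.16 ± 0.50, FDR = 0.0204). CUP1-1, a copper metallothionein in tandem copies, was at 72.3, 43.1 and 127 CPM in MOXop and 21.8, 20.3 and 15.1 CPM in GFPop, against 4.18, 5.88 and 1.82 CPM in the vector control (2.09 ± 0.46, FDR = 0.0162). In the iron regulon HMX1, the heme oxygenase, was lower (−1.66 ± 0.35, FDR = 0.0146), as were the cell wall mannoprotein FIT3 and the reductase FRE2. In the other direction 1 iron gene was called higher, and the log2 fold changes of the regulon ran from −1.66 to 2.40. In the zinc regulon IZH4 and IZH2 were higher (0.92 and 1.04), in purine synthesis ADE16 was lower and IMD4 higher, and in sulfate assimilation and methionine MHT1, MMP1, SUL2 and MUP3 were lower (−1.10 to −1.61). Of 18 gluconeogenesis genes JEN1 alone was lower (−1.45, FDR = 0.0168), of 36 respiratory genes 3 were higher (background 7.46%) and 4 lower (background 7.06%), and of 12 genes of branched-chain amino acids and 26 of ergosterol synthesis none was called. Without GFPop replicate 2 no gene of the phosphate, zinc, iron, copper, purine, sulfate, gluconeogenesis and respiratory groups was called, and without GFPop replicate 1 only 1 phosphate gene and 1 respiratory gene were, both higher.

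A MATa/MATα diploid represses haploid-specific and mating genes, of which 20 were looked up. No library of the series is from haploid cells, so their levels cannot show ploidy here. Their summed level was 197 to 245 CPM over the MOXop libraries and 204 to 261 CPM over the GFPop libraries, against 410 to 570 CPM in the vector control, and no marker was at 0 in all libraries of a group. Of 19 tested, FAR1, the cell cycle inhibitor of mating, was lower with moxGFP (−1.51 ± 0.33, FDR = 0.0155). MF(ALPHA)1 (YPL187W), the gene of alpha-factor, was at 17.0, 16.2 and 23.0 CPM in MOXop and 5.28, 4.66 and 2.14 CPM in GFPop, against 1.35, 0.94 and 1.30 CPM in the vector control, so its 3 groups did not overlap (2.21 ± 0.39, FDR = 0.00771).

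Among the 12 largest differences downward that held with and without MOXop replicate 2, HXK1, PGM2, TSL1, GLK1, DDR2, PIR3 and YCL042W are given above. HSP30, a plasma membrane heat shock protein, was at 45.1, 44.4 and 31.3 CPM in MOXop and 280, 560 and 195 CPM in GFPop, against 31.1, 43.4 and 33.7 CPM in the vector control (−3.10 ± 0.40, FDR = 0.00324). YPK2, a kinase of sphingolipid signalling, was at 26.3, 1.99 and 23.3 CPM in MOXop and 108, 151 and 89.4 CPM in GFPop (−2.71 ± 0.61, FDR = 0.0184). The others were the rows YFR052C-A (−3.83), YKR012C (−3.30) and YJL107C (−2.84). YJL107C overlaps the gene YJL108C, so reads may be shared. Overlap was searched only among genes annotated in R64, so other rows may share reads with a neighbouring gene unseen.

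The 12 largest differences upward were of another kind. They held 7 small nucleolar RNAs (snR49, snR42, snR70, snR33, snR84, snR63 and snR31), the rows YOR277C, YDL228C, YIL082W and YOR309C, and YAL037C-A. The same limit on overlap with other genes holds for these rows. Of the 12, 10 had their highest MOXop value in replicate 2, for example snR33 at 129, 694 and 94.5 CPM in MOXop and 30.9, 16.0 and 23.0 CPM in GFPop (3.71 ± 0.71, and 2.27 without replicate 2). The vector control had snR33 at 125, 80.1 and 68.2 CPM, a range that overlapped MOXop replicates 1 and 3. At FDR below 0.05, snR49 and YIL082W were lower with EGFP than with the vector (−4.08 and −4.79). YAL037C-A, YOR277C, YDL228C, YOR309C and snR31 were higher with moxGFP than with the vector, MOXop replicate 2 included. The others passed in neither comparison with the vector. Of 56 snoRNA and snRNA rows 32 were higher (background 7.46%) and none lower, and 50 had their highest value of all 9 libraries in MOXop replicate 2. Without it 17 were higher (background 10.7%). Their median log2 fold change was 3.43, and 1.03 without that library. YDL228C was at 163, 3234 and 79.3 CPM in MOXop and 54.8, 26.8 and 63.7 CPM in GFPop.

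YAL037C-A had the largest difference of all genes tested. It was at 458, 449 and 719 CPM in MOXop and at 4.94, 7.17 and 1.63 CPM in GFPop, against 9.03, 3.84 and 2.95 CPM in the vector control (6.87 ± 0.64, FDR = 0.00198, and 6.98 without MOXop replicate 2). In R64 this uncharacterized gene lies on the minus strand of chromosome I from 73426 to 73518, 137 bases after the end of CDC19, the pyruvate kinase gene, which runs on the plus strand from 71786 to 73288. Its counts moved with those of the moxGFP row: 2.52, 3.69 and 2.58 counts per 1000 moxGFP counts in MOXop replicates 1 to 3. The part of the transgene in this value was not tested.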

How the data were processed

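RNA of log-phase yeast was sequenced by the authors as stranded total RNA with ERCC spike-ins, in 3 moxGFP, 3 EGFP and 3 vector libraries. Per the labels and the study's methods, reads were trimmed with FastP, aligned with HISAT2 2.2.0, handled with SAMtools 1.11 and StringTie, and compared with edgeR 3.28.1. The authors deposited raw counts per gene for each library. Genome build, annotation and strand setting of the counting are not given in the sources used here. Counts were used as deposited. ERCC and transgene rows were left out of library sizes and tests, and ribosomal RNA rows were kept. Gene counts per library ran from 5301330 to 12959591, and intervals on shares of counts cover counting error only.

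Counts were scaled by TMM, filtered with filterByExpr and fitted with edgeR 4.0.16 (R 4.3.3) in its quasi-likelihood test over all 9 libraries with group as the only term, and p-values were adjusted by Benjamini-Hochberg over all 6350 genes, with FDR below 0.05 as the call. The SE is the size of the log2 fold change divided by the square root of F. Shares of counts were compared by a two-sided exact permutation test over libraries. The fit was tested on simulated counts for 6321 genes with 200 changed 4-fold, where 96.5% were recovered and 3.5% of the calls were false. The simulated counts had a smaller spread than the data, no library like MOXop replicate 2 and no trend with gene length. The recovery therefore cannot be carried over to these libraries. Names, lengths and promoters came from RefSeq R64, to which 6048 rows matched by locus tag. BLAST 2.17.0 marked near-identical copies (90% identity over 50% of the length).

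Named genes were, in each direction, the 12 largest log2 fold changes among genes called with and without MOXop replicate 2, with groups that did not overlap and a mean of at least 10 CPM in the higher group, up to 5 members with the smallest p of each gene list, members of short lists, regulators and plasmid markers. Others named, among them DDR2 as a list member, DSE2, PIR3 and the remaining called members of small counts, were picked after their values were seen. The members and lists were chosen with earlier results of these data known. Alternatives covered the scaling, the filter, DESeq2 1.42.0, limma 3.58.1 (voom), the 6 GFP libraries alone, the replicate number as a block, ribosomal RNA and transgene rows, a threshold of 0.01 and each library left out. Those that combine another choice with leaving out MOXop replicate 2 were added after seeing the data.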

Additional observations from a re-analysis of the deposited data

Results flagged for a closer look

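Each GFP strain also held counts in the row of the other GFP, which entered only the alternatives that kept the transgene rows. The EGFP row had 25015, 20895 and 37124 counts in MOXop replicates 1 to 3, where the vector libraries had 11 to 85. The moxGFP row had 30074, 29623 and 50777 counts in GFPop replicates 1 to 3, where the vector libraries had 5 to 9. Set against the strain's own transgene, these were 15.4, 56.9 and 13.3 EGFP counts per 1000 moxGFP counts in MOXop, and 33.8, 27.6 and 30.4 moxGFP counts per 1000 EGFP counts in GFPop. The highest ratio was in MOXop replicate 2. Where these counts came from was not tested.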

How the results depend on the processing

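Of 154 named genes called, none reversed under any alternative run. They were mostly picked by p or log2 fold change in these same counts. Of all 922 calls, 901 had groups that did not overlap. A reversal was therefore hardly possible, and its absence does not measure how steady the directions are. Of the 154, 153 missed the threshold under at least one alternative, 114 of them outside the scalings by library sizes alone and by ERCC and 24 with another tool, filter, size factors or block. Precision is limited by 3 libraries a group and a biological coefficient of variation of 0.364. With DESeq2 size factors, no filter, or without rRNA rows the counts over all genes and over the 9 groups named below stayed within 1.5 times those reported. Among the other groups, no filter lost the 1 higher call in purine synthesis (IMD4), and DESeq2 size factors gave 3 in RNA polymerase III, against 2.

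With library sizes alone 3 genes were higher and 27 lower, and the groups kept 4 Hsf1 targets, 11 general stress, 3 trehalose and 2 glycogen genes lower, and 0 in the proteasome, redox defence, ribosomal proteins, SSU processome and 60S assembly. With ERCC as the scaling 1 gene was higher and 0 lower, with 0 in every group. Without MOXop replicate 2 these scalings gave 447 and 485 genes (library sizes alone) and 179 and 32 (ERCC), with the median of all genes at 0.39 under ERCC. In the order ribosomal proteins, SSU processome, 60S assembly (higher), Hsf1 targets, general stress response, trehalose, glycogen, proteasome and redox defence (lower), library sizes alone then gave 31, 26, 43, 13, 29, 8, 9, 0 and 9, and ERCC gave 5, 15, 28, 5, 11, 3, 1, 0 and 0. The cause of these losses was not tested. The DESeq2 test called 807 higher and 644 lower, with 104 ribosomal proteins, 6 proteasome and 7 redox genes, and without MOXop replicate 2 788 and 810, in the same order 73, 40, 56, 17, 33, 8, 10, 5 and 14. In the simulated counts 10.65% of its calls were false, against 3.5% for edgeR. Limma-voom and a minimum of 10 counts in every library each gave 6 redox genes. The fit to the 6 GFP libraries called 118 and 126, in the same order 3, 13, 22, 11, 14, 7, 5, 0 and 1, and a threshold of 0.01 called 50 and 75, in that order 0, 4, 6, 10, 12, 7, 2, 0 and 1.

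Replicate numbers did not pair the samples: deviations of same-numbered MOXop and GFPop libraries correlated at −0.352, −0.203 and 0.149. A block for the replicate number left 261 calls upward and 323 downward, including 13 ribosomal proteins and 15 SSU processome genes upward. Without MOXop replicate 2 the block gave 586 and 583, in the order above 30, 37, 53, 16, 31, 8, 10, 3 and 11.

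Leaving out 1 library at a time gave 31 to 697 genes higher and 68 to 715 lower. Counts ran from 0 to 88 for ribosomal proteins, 1 to 39 for the SSU processome, 6 to 55 for 60S assembly, 10 to 16 for Hsf1 targets, 12 to 33 for general stress, 7 to 8 for trehalose, 2 to 10 for glycogen, 0 to 4 for the proteasome and 0 to 10 for redox defence. The share of ribosomal proteins differed by 5.02 percentage points over all gene rows (2.33 to 7.46 with a library left out) and by 10.4 without rRNA rows. For Hsf1 targets the difference was −1.06 (−1.11 to −0.97), −1.18 without rRNA rows and −0.90 with the transgene rows, and for general stress −0.70 (−0.78 to −0.61).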
